A study of Oncorhynchus mykiss with 30 samples.

Results

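Among the probes that followed the response of juvenile male rainbow trout gonads to ethynylestradiol (EE2), 99 of 60195 had their highest mean level at 0.1 μgEE2/L and at least a doubling over every other concentration. They were chosen from the deposited log2 values. A probe had to be open to the rule (59967 probes), to have a mean of at least 7 at 0.1 μg/L (30829 probes), and to have a score of at least 1, where the score is its mean at 0.1 μg/L minus the highest of the other 4 group means. The rule allowed up to 150 probes and named 4 that were to be left out. The minimum score ended the list first, at 99 probes, which are called the 0.1 μg/L peak probes here. All levels given here are log2 intensities recomputed from the scanner files, and all 99 also had a score of at least 1 on that scale.

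Fry of an all-male population of Oncorhynchus mykiss, the rainbow trout, received a solvent control or a nominal 0.01, 0.1, 1 or 10 μgEE2/L over 76 days, the first at an age of 60 and the last at 136 days after fertilisation. Each concentration had 3 tanks, and 2 pools of gonads from 10 fish each were taken per tank, so that each of the 5 groups held 6 pools on 6 single-colour arrays. In the water, EE2 was measured at a mean of 0.08 (SD 0.06) where the nominal value was 0.1 μg/L, at a mean of 1.62 (SD 1.74) where it was 1 and at a mean of 9.88 (SD 5.06) where it was 10, whereas the lowest concentration could not be detected (limit 0.02 μg/L). The labels give no difference in strain or genotype between groups, every fish was labelled male, and the tissue was labelled testis at all concentrations. In the histology that the study summarised, all control gonads were testicular and all gonads at 10 μg/L were ovary-like. Gonads at 0.01 and 0.1 μg/L were of several types, and most at 1 μg/L were ovary-like. The groups between control and 10 μg/L therefore mix gonad types, and in no group is a gonad one cell type.

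EE2 is the synthetic estrogen of contraceptive pills. It binds the nuclear estrogen receptors, which then act on the transcription of their target genes. In salmonid fish the balance of estrogens and androgens during early life steers the undifferentiated gonad towards an ovary or a testis, and males given estrogen in that period can develop ovarian tissue. Hormone responses need not follow the dose in one direction.

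The array design names most probes by the contig or sequence read they were made from and not by a gene. Of the 99 probes, 67 carry names that begin with TC and 32 carry names that begin with CUST. None of their file names matched a gene symbol, synonym or accession of the rainbow trout RefSeq annotation (assembly USDA_OmykA_1.1), against 9 matches among all 60195 probes. Probe names are therefore used throughout, and marker genes of gonadal cell types were not analysed here.

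The arrays differed in brightness. The 75th percentile of intensity ranged from 359 to 1238 with a median of 808. Between 75.6% and 88.2% of probes passed the scanner software's mark for being well above background. The arrays at 0.1 μg/L were on average the dimmest, with a 75th percentile of 673 ± 201 (SD, n = 6), against 717 ± 296 in the control, 851 ± 233 at 0.01 μg/L, 876 ± 234 at 1 μg/L and 974 ± 137 at 10 μg/L. Control replicate 4 and replicate 1 at 0.1 μg/L had a dim band across the middle of the array.

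The score ranged from 1.00 to 2.67 with a median of 1.20, which is a 2.00-fold to 6.38-fold excess over the next group. Of the 99 probes, 15 had a score of at least 1.5 and 4 a score of at least 2. The same rule applied to each of the other groups found 580 probes with a peak in the control, 24 at 0.01 μg/L, 2 at 1 μg/L and 34 at 10 μg/L. Between 10 and 1 μg/L limma called 1 of all probes in each direction, which leaves little room for a peak at either. Nothing is therefore read from the differences between these counts. The scores of the 99 probes were used to choose them and are given as a description. By the same fit as below, 81 of the 99 were called higher at 0.1 μg/L than in the control, where 12.8% of all probes were higher and 14.3% lower. Against 0.01 μg/L, 60 were higher (6.03% of all probes higher, 4.45% lower), against 1 μg/L, 52 (4.66% and 1.6%), and against 10 μg/L, 82 (13.1% and 10.9%). None was lower. The rule had used all 4 contrasts, so nothing is read from these counts.

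The highest score belonged to TC95390. Its level at 0.1 μg/L was 8.30 in the lowest pool, 9.38 at the median and 10.35 in the highest pool. In the control its lowest, median and highest levels were 5.59, 6.21 and 8.22, at 0.01 μg/L they were 5.94, 6.63 and 7.54, at 1 μg/L they were 5.60, 6.07 and 6.91, and at 10 μg/L they were 3.91, 5.35 and 5.64. All 6 pools at 0.1 μg/L lay above all 24 other arrays, although the gap was only 0.08. At 10 μg/L the probe was lower than in the control (limma, log2 change -1.30, SE 0.39, adjusted p = 0.00787) and lower than at 0.01 μg/L (log2 change -1.58, SE 0.39, limma adjusted p = 0.00352). The first of these calls was lost with normexp background correction (-0.61, adjusted p = 0.051).

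TC104222 followed, with a score of 2.56. Its 6 pools at 0.1 μg/L lay between 9.67 and 10.77 (median 10.27), whereas the other groups were broadly spread, from 3.34 to 8.79 in the control, 4.98 to 8.95 at 0.01 μg/L, 5.37 to 8.96 at 1 μg/L and 1.64 to 8.61 at 10 μg/L. The SD between pools was 0.39 at 0.1 μg/L and 2.83 at 10 μg/L. The groups did not overlap with 0.1 μg/L, and the gap was 0.71. No contrast among the other 4 groups passed the test for this probe.

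CUST_19697_PI425536763 lay between 8.92 and 10.44 (median 9.66) at 0.1 μg/L and had a score of 2.24. It ranged from 5.06 to 7.40 in the control, from 6.82 to 8.36 at 0.01 μg/L, from 6.78 to 7.64 at 1 μg/L and from 6.01 to 7.20 at 10 μg/L. The probe already stood above the control at 0.01 μg/L (log2 change 1.58, SE 0.34, limma adjusted p = 0.00375) and at 1 μg/L (log2 change 1.26, SE 0.34, adjusted p = 0.00385). At 10 μg/L it was not distinguishable from the control (log2 change 0.61, SE 0.34, limma adjusted p = 0.148).

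CUST_1661_PI425536763 was the brightest of the 10 probes with the highest scores. Its 6 pools at 0.1 μg/L lay between 11.86 and 12.85 (median 12.03), against 8.53 to 9.74 in the control, 9.56 to 11.19 at 0.01 μg/L, 9.45 to 11.17 at 1 μg/L and 8.20 to 10.77 at 10 μg/L. Its score was 1.92 and its gap to the highest other array was 0.67. The mean at 10 μg/L, 9.16 ± 0.96 (SD, n = 6), was next to the control mean of 9.18 ± 0.50 (log2 change -0.02, SE 0.37, limma adjusted p = 0.966).

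TC129073 and TC120265 had a similar course at lower levels. TC129073 lay between 7.91 and 9.81 (median 8.48) at 0.1 μg/L, and between 4.45 and 5.68 (median 5.03) in the control. It was higher at 1 μg/L than in the control, with a log2 change of 1.71 (SE 0.38, limma adjusted p = 0.000761). TC120265 lay between 8.09 and 9.41 (median 8.69) at 0.1 μg/L and between 5.31 and 6.19 (median 5.87) in the control, and it rose by 1.08 at 1 μg/L (SE 0.27, limma adjusted p = 0.00207). In both probes all 6 pools at 0.1 μg/L lay above all 24 other arrays.

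The other 4 of the 10 highest scores came from probes whose groups overlapped. TC99809 had a mean of 9.48 ± 0.97 (SD, n = 6) at 0.1 μg/L, but 1 array at 10 μg/L lay above all but the highest pool (10.74) and 1 at 1 μg/L reached 9.55, so that only 1 pool at 0.1 μg/L lay above all others. TC126694 had pools from 5.58 to 8.66 (median 7.20) at 0.1 μg/L, and it was not well above background on any control array. It was at least 4.26-fold higher at 1 μg/L than in the control (limma adjusted p = 0.0195) and at least 4.00-fold higher at 10 μg/L (limma adjusted p = 0.022), each bound being set by the lowest signal well above background on the control arrays. Both calls were lost with 75th-percentile scaling, with log2 changes of 2.24 and 2.20 and limma adjusted p of 0.056 and 0.058, and with normexp background correction. The first was also lost without replicate 4 at 1 μg/L (2.23, adjusted p = 0.062) and the second without replicate 5 at 10 μg/L (1.95, adjusted p = 0.081).

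TC108170 lay between 8.54 and 10.63 (median 9.80) at 0.1 μg/L and between 5.09 and 9.51 (median 8.10) at 0.01 μg/L. At 10 μg/L it lay between 1.58 and 5.50 (median 2.29), below the lowest pool at 0.1 μg/L and overlapping the pools at 0.01 μg/L. It was well above background on only 2 of the 6 arrays at 10 μg/L, so the size of the drop from 0.01 μg/L (log2 change -4.91, SE 0.88, limma adjusted p = 0.000143) rests on values near background. TC116557 lay between 4.90 and 8.37 (median 7.29) at 0.1 μg/L and was not well above background on any array at 1 or 10 μg/L. Its control level was at least 2.51-fold above that at 1 μg/L (limma adjusted p = 0.0113) and at least 4.04-fold above that at 10 μg/L (limma adjusted p = 0.00277), and neither call was kept with normexp background correction (log2 changes -0.63 and -0.66).

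**Figure D1:**
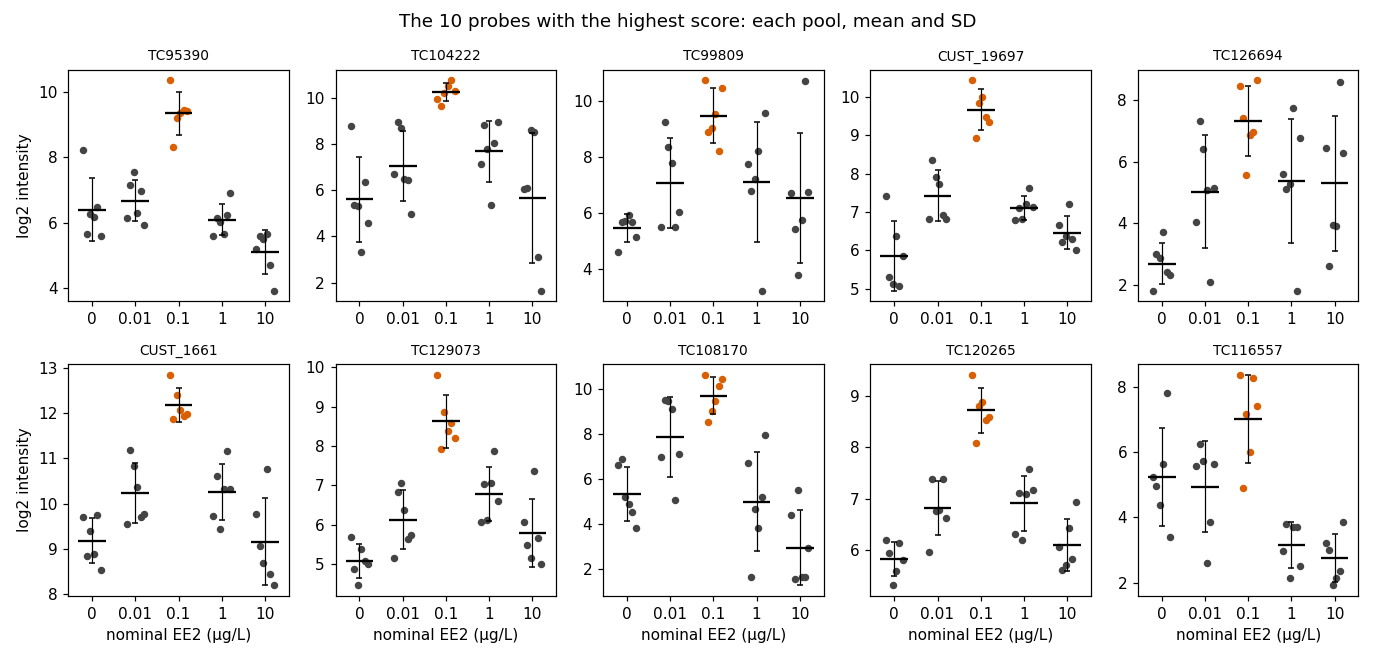
Log2 intensity (y) of the 10 probes with the highest score in each pool at each nominal concentration (x, control as 0). Points are single pools, lines the mean of 6 pools and bars the SD, and in 6 panels every orange point at 0.1 μg/L lies above all 24 other points.

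A peak that rests on a single pool was looked for by leaving pools out. Without its highest pool at 0.1 μg/L, each of the 99 probes kept a score of at least 0.5, and 44 kept a score of at least 1. The lowest such score, 0.56, was that of TC96063, named after its values were seen. Its pool 1 was at 11.94 and its next highest, pool 3, at 9.07. On group medians in place of means all 99 scores were at least 0.5 (lowest 0.52) and 77 were at least 1. In 23 probes all 6 pools at 0.1 μg/L lay above all 24 other arrays, against 0.0964% of all probes, a contrast that the rule had used. In 47 probes at least 4 pools did so, and in 17 no pool did. The rule had used these values and shares over all probes are not given, so nothing is read from these counts.

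The probes near the minimum score show both kinds. TC127166 (score 1.01) had pools from 11.04 to 12.33 at 0.1 μg/L, all above the highest other array by 0.12, and a score of 0.84 without its highest pool. TC129359 (score 1.00) had 1 pool at 17.06, the next highest at 15.59 and a median of 14.94, and its score without that pool was 0.62. TC94774 (score 1.00) overlapped the control, 0.01 and 1 μg/L, with a pool at 7.09 and the other 5 between 8.58 and 9.22, and its score was 0.89 without its highest pool.

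Just outside the minimum lay CUST_2600_PI425536763, TC114035 and CUST_13758_PI425536763, with scores of 0.998, 0.995 and 0.994 on the scanner values. Among the probes just inside, TC123257 (score 1.02) fell to 0.89 without its highest pool, and CUST_7379_PI425536763 (score 1.01) to 0.78.

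**Figure D2:**
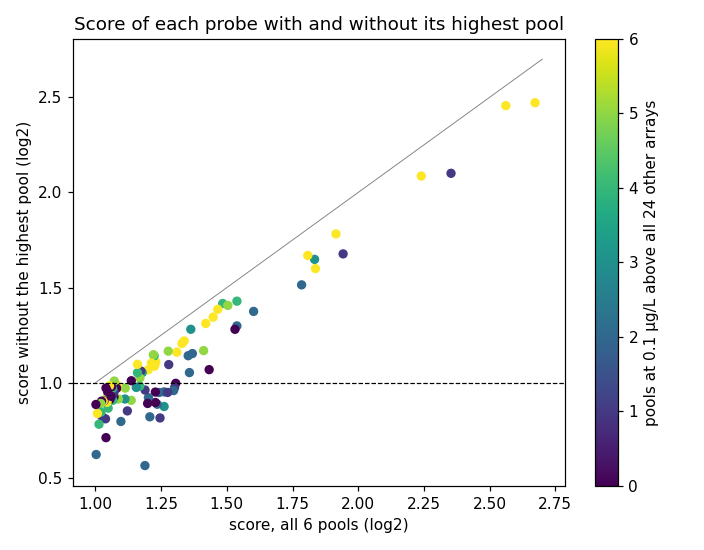
Score of each of the 99 probes from all 6 pools (x, log2) against the score without its highest pool at 0.1 μg/L (y, log2), coloured by the number of pools above all 24 other arrays. The dashed line marks 1, and 44 probes lie at or above it.

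The rule set an upper limit on the levels at 0, 0.01, 1 and 10 μg/L. It did not set the order of these 4 groups. It used their means, however, and each probe had to be at least doubled at 0.1 μg/L over the control. A probe lowered at 0.1 μg/L could not enter. The shares over all 60195 probes include those under the minimum mean of 7, which 30829 of the probes open to the rule met. How far the shares below follow from these limits was not tested. The next highest mean after 0.1 μg/L was that at 1 μg/L in 48 probes, at 0.01 μg/L in 30, in the control in 15 and at 10 μg/L in 6. The lowest mean was that of the control in 53 probes and that at 10 μg/L in 43, leaving 3 probes whose lowest mean was at 0.01 or 1 μg/L. These are arrays of whole gonads, in which fewer cells of a type and less RNA per cell cannot be told apart.

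At 0.01 μg/L, 19 of the 99 probes (19.2%) were higher than in the control and none was lower by limma at an adjusted p under 0.05. The share over all 60195 probes was 2.83% higher and 5.09% lower. At an unadjusted p under 0.05, 30 probes were higher and again none was lower, against 9.29% higher and 12.4% lower over all probes. The median log2 change of the 99 probes was 0.56, against -0.02 over all probes, and 80 of the 99 were above 0. The rule used both group means, and how far these differences follow from it was not tested.

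At 1 μg/L, 39 probes (39.4%) were higher than in the control and 5 (5.05%) were lower, against 19.8% higher and 21.2% lower over all probes. In 24 probes (24.2%) all pools at 1 μg/L lay above all control pools, against 7.82% of all probes. At 10 μg/L, 20 probes (20.2%) were higher and 21 (21.2%) were lower, against 21.7% and 22.5% of all probes. The lower calls at 10 μg/L were 13 with normexp background correction (17 higher), against 21.6% of all probes lower. They were 13 with a brightness covariate (24 higher), against 18.3% of all probes lower. With 75th-percentile scaling, which moved the median change of all probes to -0.29, 15 were higher and 24 lower. In that setting 17.4% of all probes were higher and 30.0% lower. The median change from the control was 0.45 at 1 μg/L and 0.06 at 10 μg/L on the log2 scale. The means of these groups were used by the rule too, with the same limit. All 20 probes that were higher at 10 μg/L were also higher at 1 μg/L, whereas 19 were higher at 1 μg/L and not called at 10 μg/L. Shares over all probes are not given for these joint counts, so nothing is read from them.

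Between the exposed groups, 14 probes were higher and 6 lower at 1 than at 0.01 μg/L, against 9.56% and 11.8% of all probes. From 0.01 to 10 μg/L, 8 were higher and 23 (23.2%) lower, against 13.4% and 13.9%. Without replicate 2 at 0.01 μg/L the lower calls were 14, against 11.1% of all probes, and without replicate 3 they were 15, against 11.9%. Between 10 and 1 μg/L limma called none of the 99 probes, and 1 in each direction among all probes (0.00166%). At an unadjusted p under 0.05, 37 were lower at 10 μg/L and none was higher, against 3.33% lower and 1.47% higher over all probes. The log2 change was below 0 in 89 of the 99 probes, with a median of -0.59 against 0.02 over all probes. With array weights 34 probes passed, all lower at 10 μg/L, against 2.98% lower and 0.719% higher over all probes. How far the differences from all probes follow from the rule was not tested here either. In 38 probes no contrast among the 4 other groups passed, a count without a share over all probes, from which nothing is read.

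**Figure D3:**
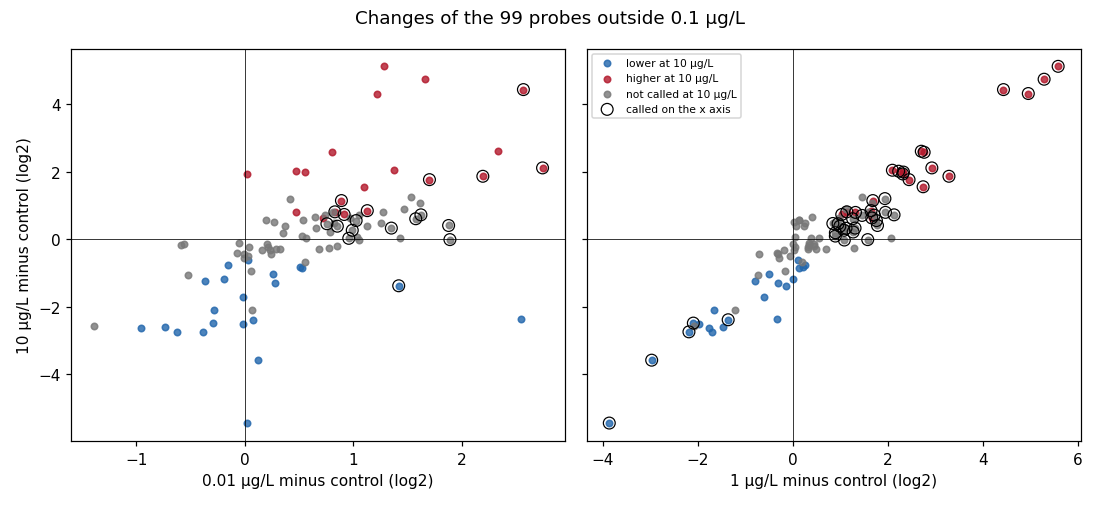
Log2 change from the control at 0.01 μg/L (left, x) and at 1 μg/L (right, x) against that at 10 μg/L (y) for the 99 probes. Colours give the call at 10 μg/L and open circles the probes called on the x axis, which are 19 on the left, all to the right of 0, and 44 on the right.

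The rule capped the levels in the control and at 10 μg/L but did not set which of them was higher. The change from the control at 10 μg/L divided the probes into 20 that rose, 21 that fell and 58 that were not called. The shares were 20.2% higher and 21.2% lower, near the 21.7% and 22.5% of all probes. Nothing is read from the class sizes. The lower calls were 13 with normexp background correction (21.6% of all probes lower) and 13 with a brightness covariate (18.3%). The classes were defined by the control and 10 μg/L, so the order of these groups in the medians follows from that choice. The 20 that rose had a median level of 7.17 in the control, 8.46 at 0.01 μg/L, 10.94 at 0.1 μg/L, 9.68 at 1 μg/L and 9.36 at 10 μg/L. The 21 that fell had median levels of 7.32, 7.34, 8.74, 5.87 and 4.99 in the same order. The 58 others went from 6.74 in the control to 7.04, 8.67, 7.10 and 6.57.

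**Figure D4:**
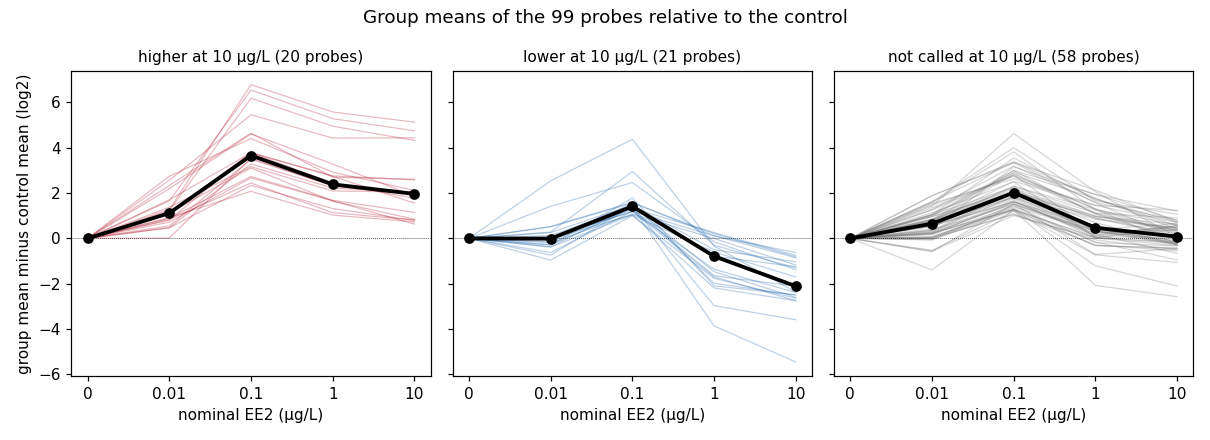
Group means of the 99 probes minus the control mean (y, log2) at each nominal concentration (x, control as 0), with 1 thin line per probe and the median as a thick line. The peak at 0.1 μg/L was used to choose the probes, while the panels follow the limma call at 10 μg/L (20 higher, 21 lower, 58 not called).

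Of the probes that rose, 3 had the largest changes from the control at 1 μg/L. CUST_28634_PI425536763, named in the files for the sequence M27651, lay between 7.0 and 10.53 (median 7.35) in the control and between 8.47 and 10.59 at 0.01 μg/L. It lay between 11.08 and 15.95 (median 14.55) at 0.1 μg/L, between 10.91 and 14.40 (median 13.62) at 1 μg/L and between 9.65 and 15.07 (median 12.46) at 10 μg/L. The 3 highest concentrations overlapped widely, and the pools at 1 μg/L lay above all control pools. Its log2 change from the control was 5.29 at 1 μg/L (SE 0.84, limma adjusted p = 1.41e-05) and 4.75 at 10 μg/L (SE 0.84, limma adjusted p = 5.1e-05).

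TC95916 and TC94769 followed the same course. TC95916 was the brightest peak probe, with a mean of 9.33 ± 1.20 (SD, n = 6) in the control, 15.52 ± 1.73 at 0.1 μg/L, 14.28 ± 1.45 at 1 μg/L and 13.65 ± 2.20 at 10 μg/L. TC94769 changed by 5.58 at 1 μg/L (SE 0.80, limma adjusted p = 2.81e-06) and by 5.13 at 10 μg/L (SE 0.80, limma adjusted p = 8.76e-06). It was well above background on 3 of the 6 control arrays. At 0.01 μg/L none of the 3 probes passed, with log2 changes of 1.66, 1.22 and 1.28. In all 3 probes pool 2 was the lowest of the 6 pools at 0.1 μg/L, at 11.08, 12.30 and 7.74, and without it the scores of 1.26, 1.24 and 1.21 became 1.93, 1.88 and 1.88. Leaving out the lowest pool can only raise a score. Without the highest pool instead, all 3 scores fell under 1. The rule had used these values, so nothing is read from either change.

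A second course within this class began at the lowest concentration. TC109662 lay between 5.25 and 7.48 (median 6.36) in the control and between 8.47 and 9.86 (median 8.99) at 0.01 μg/L, without overlap. It changed by 2.74 at 0.01 μg/L (SE 0.40, limma adjusted p = 9.42e-05), by 2.92 at 1 μg/L and by 2.12 at 10 μg/L. TC120172 lay between 7.20 and 9.43 in the control and between 9.46 and 10.98 at 0.01 μg/L, with a log2 change of 2.19 (SE 0.33, limma adjusted p = 0.000122). It changed by 3.28 at 1 μg/L and by 1.87 at 10 μg/L (SE 0.33 for both), and its 6 pools at 0.1 μg/L, from 12.04 to 13.26, lay above all other arrays. Over the 99 probes, 7 (7.07%) had all pools at 0.01 μg/L above all control pools, against 0.965% of all probes. Joint calls higher than the control at 0.01, 1 and 10 μg/L were found in 8. No share over all probes is given for the 8, and nothing is read from that count.

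CUST_7379_PI425536763 lay between 3.76 and 7.07 (median 5.01) in the control, 7.11 and 8.57 at 0.01 μg/L, 9.43 and 10.13 at 1 μg/L and 8.96 and 10.63 at 10 μg/L. Neither 1 nor 10 μg/L overlapped the control or 0.01 μg/L. Its log2 change from the control was 2.57 at 0.01 μg/L (SE 0.49, limma adjusted p = 0.0013) and 4.44 at 10 μg/L (SE 0.49, adjusted p = 3.98e-08). At 0.1 μg/L pool 1 was at 8.22 and the other 5 pools were between 10.58 and 11.93. Its spot lies in the middle band that is dim on that array, whose part in the value was not tested, and without pool 1 its score was 1.52. Leaving out the lowest pool can only raise a score, and without the highest pool it was under 1, as given above.

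Among the 21 probes that fell at 10 μg/L, TC95105 fell furthest. It lay between 6.43 and 11.95 (median 9.67) in the control, 6.57 and 11.22 (median 9.70) at 0.01 μg/L, 3.36 and 7.81 (median 5.33) at 1 μg/L and 2.46 and 4.32 (median 4.00) at 10 μg/L. No pool at 10 μg/L reached the lowest control pool, and the probe was well above background on 5 of 6 arrays at 1 μg/L and on 3 at 10 μg/L. The log2 change from the control was 0.02 at 0.01 μg/L (SE 0.95, limma adjusted p = 0.996), -3.86 at 1 μg/L (adjusted p = 0.00187) and -5.46 at 10 μg/L (adjusted p = 4.16e-05). At 0.1 μg/L pool 2 was at 6.75 and the other 5 were between 10.30 and 12.08, and without pool 2 its score of 1.36 became 2.12. Leaving out the lowest pool can only raise a score. Without the highest pool instead, the score was lower than 1.36 but stayed above 1.

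TC123615 had the same form, with a control range of 4.52 to 10.49 and a range at 10 μg/L of 2.26 to 4.39, again without overlap (log2 change -3.59, SE 0.92, limma adjusted p = 0.00236). Its pool 2 at 0.1 μg/L was at 4.58, below the median of the control, while the other 5 lay between 8.67 and 10.01. TC103625 fell by 2.75 at 10 μg/L (SE 0.76, limma adjusted p = 0.00448), and its pool 2 at 0.1 μg/L was at 5.29, against 7.51 to 9.63 in the other 5. At 10 μg/L TC123615 was well above background on 3 of 6 arrays and TC103625 on 2. In these 3 probes the pools at 0.1 μg/L overlapped those of the control, and TC95105 and TC123615 had the largest SDs at 0.1 μg/L of all 99 probes, 1.98 in each.

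Not every falling probe was so spread. CUST_14482_PI425536763 had an SD of 0.26 at 0.1 μg/L, with pools from 10.55 to 11.21. It lay between 8.91 and 11.49 in the control and between 7.38 and 9.11 at 10 μg/L, and the change was -1.70 (SE 0.33, limma adjusted p = 0.000144). The smallest SD at 0.1 μg/L, 0.23, was that of TC113943 in the class not called at 10 μg/L, whose pools lay between 11.36 and 12.04 and whose change at 1 μg/L was 0.89 (SE 0.26, limma adjusted p = 0.00653).

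CUST_27144_PI425536763 is described because the study's own annotation names it, by a match to a bacterial methionine import ATP-binding protein. Such proteins drive the uptake of methionine in bacteria. The probe lay between 4.54 and 6.16 (median 4.81) in the control, 5.20 and 7.99 (median 6.19) at 0.01 μg/L, 6.94 and 7.96 (median 7.46) at 0.1 μg/L, 4.54 and 5.32 (median 4.86) at 1 μg/L and 1.91 and 4.42 (median 3.99) at 10 μg/L. All pools at 10 μg/L lay below all control pools, with 4 of the 6 well above background. It was called higher at 0.01 μg/L and lower at 10 μg/L than the control, with log2 changes of 1.42 (SE 0.38, limma adjusted p = 0.0192) and -1.38 (SE 0.38, adjusted p = 0.00408). The first was lost without replicate 3 at 0.01 μg/L (1.31, adjusted p = 0.052) and the second with normexp background correction (-0.35, adjusted p = 0.127). No other probe of the 99 had both calls. A share over all probes is not given for this joint count, so nothing is read from it.

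The 6 pools at 0.1 μg/L are described by how often each was the highest or the lowest in a probe. Pool 1 was the highest in 41 of the 99 probes and pool 5 in 20, whereas pool 2 was the lowest in 53. Pool 2 was the lowest in 13 of the 21 probes that fell at 10 μg/L, with a median deviation of -1.05 from the mean of the pools, in 9 of the 20 that rose, with a median of -0.40, and in 31 of the 58 others, with a median of -0.57. Pool 1 had median deviations of 0.93, 0.26 and 0.58 in the same classes. Pools 1 and 2 came from the same tank by the labels of the scanner files. Pool 1 is also the array with the dim middle band. The rule had used the values of these pools, and shares over all probes are not given. Nothing is therefore read from these counts and deviations.

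Tanks at 0.1 μg/L were compared with an F test in limma. None of the 99 probes passed, against 16 of all probes (0.0266%), and 3 of the 99 had an unadjusted p under 0.05 (13.4% of all probes), the lowest being 0.0144 for CUST_7379_PI425536763. Without pool 2, 2 of the 99 passed, CUST_7379_PI425536763 and TC96063, which were named after their values were seen, and 3878 of all probes did. Tank 1 is then a single pool that is assumed to vary like the others. Each tank held 2 pools, and pools 1 and 2, often the highest and the lowest, shared tank 1. The rule had used the values of these pools. Nothing is therefore read from these counts or from their difference to all probes.

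**Figure D5:**
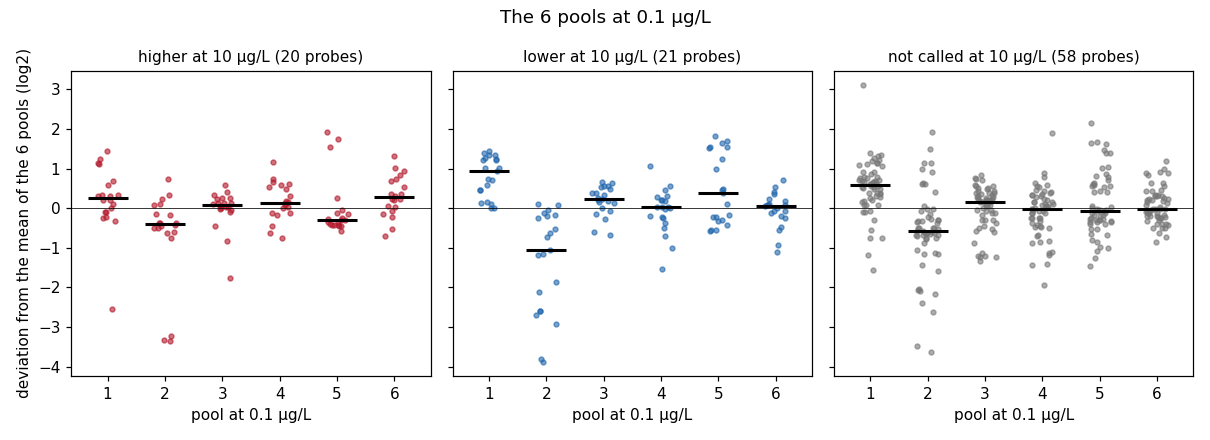
Deviation of each probe from the mean of its 6 pools at 0.1 μg/L (y, log2) by pool (x), in 3 panels by the call at 10 μg/L. Each point is a probe and each bar the median, which is lowest for pool 2 in each panel (-0.40, -1.05 and -0.57). The rule used the values of these pools, so the figure is a description.

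The peak probes had a larger median SD between pools than all probes in every group. Their median SD was 0.70 in the control, 0.74 at 0.01 μg/L, 0.60 at 0.1 μg/L, 0.59 at 1 μg/L and 0.78 at 10 μg/L. Over all probes it was 0.45, 0.34, 0.45, 0.30 and 0.35, and over probes with a group mean of at least 7 it was 0.40, 0.29, 0.38, 0.25 and 0.30. This is a description, without a test. The rule used the values of these pools and can favour probes with a wide spread. Probes with a group mean of at least 7 were also not matched to the peak probes in level. The median of the peak probes' group means was 6.95 in the control and 6.67 at 10 μg/L. Nothing is therefore read from the difference in SD.

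Some probes also varied together. After subtraction of the group means, Pearson's r over the 30 arrays was above 0.9 for 21 pairs drawn from 29 of the probes, and its median over all pairs was 0.26. The closest pair was CUST_28634_PI425536763 with TC95916 (r = 0.986), and TC94769 correlated with them at 0.966 and 0.947. Next came CUST_28495_PI425536763 with TC99602 (r = 0.973) and CUST_2877_PI425536763 with TC100351 (r = 0.971), named for their rank only. The pairs share their arrays, and the files do not say whether their probes lie on the same transcript. Correlations among other probes are not given here, so this is not read as particular to the peak probes.

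On all 6 arrays of a group, 94 of the 99 were well above background at 0.1 μg/L, 85 in the control, 91 at 0.01 μg/L, 79 at 1 μg/L and 77 at 10 μg/L. In the middle band lie 24 of the probes. On replicate 1 at 0.1 μg/L 1 of the 24 was more than 2 below the median of the other pools, CUST_7379_PI425536763. Of all probes in that band 16.1% were, against 1.69% outside it. On control replicate 4 none of the 24 was, against 13.0% of all probes in the band and 2.96% outside it. The rule used the values of both arrays and chose the probes for high values at 0.1 μg/L. Nothing is therefore read from either count.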

How the data were processed

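Gonad pools were hybridised singly to Agilent 8x60K arrays, and spots were read with Agilent Feature Extraction, per the file headers. The deposited intensity files hold, per spot, a processed signal that the software had background-subtracted and detrended within the array. The authors also deposited log2 values, quantile normalised over the 30 arrays (R 2.15.3 per the submitters' processing notes). Of its columns, 3 pairs are exchanged within a concentration against the scanner files (control replicates 2 and 4, 0.1 μg/L replicates 1 and 6, 10 μg/L replicates 4 and 5). Groups are not affected. Replicate and tank labels here are those of the scanner files.

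Control spots were left out. Outlier spots were left out unless all spots of a probe were outliers, in which case they were kept. Such probes numbered 1 to 99 per array (median 5.5). Spots of a probe were averaged, and log2 intensities were quantile normalised. Groups of 6 were compared with limma 3.58.1 (R 4.3.3), with all 5 groups in one fit and Benjamini-Hochberg adjustment over 60195 probes, and called at an adjusted p under 0.05. The limma fit of the group contrasts was checked on simulated data with independent pools. The F test between tanks was not. Contrasts with 0.1 μg/L were used by the rule, so their calls are given as a description and support nothing. The means of the other groups entered the rule as upper limits. Pools share tanks, so p-values measure the spread between pools.

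Probes named are the 10 highest and 3 lowest scores, 3 just outside, the 3 largest called changes in each direction per contrast, the 2 largest and 2 smallest SDs at 0.1 μg/L, up to 5 whose score fell under 1 without the highest pool, and any with an annotation. The members and lists were chosen with earlier results of these data known. Same-numbered samples did not deviate together (mean correlation 0.02, from -0.46 to 0.43), so numbers were not treated as pairs. Alternatives were 75th-percentile scaling, the deposited values, normexp with an offset of 50, a filter on probes well above background, slide, tank and replicate terms, array weights, a brightness covariate and leaving out arrays. Tanks by the table's labels, and scores from the fits with added terms, were chosen after seeing the data. The number of arrays limits the precision.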

Additional observations from a re-analysis of the deposited data

Results flagged for a closer look

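Among 130 groups of 6 values (26 named probes in 5 groups), 11 held a sample far from the other 5 by Dixon's criterion. Chance meets it in about 1 of 20 groups, but some of these probes were named for a large spread or a high single pool at 0.1 μg/L, so that rate does not apply to them. At 0.1 μg/L, pool 2 stood low in 4 of them. It was at 7.74 for TC94769 (others 11.10 to 13.02), at 11.08 for CUST_28634_PI425536763 (others 14.45 to 15.95), at 6.75 for TC95105 (others 10.30 to 12.08) and at 4.58 for TC123615 (others 8.67 to 10.01). Control replicate 2 stood high in 3 probes. It was at 6.86 for TC94769 (others 3.04 to 4.29), at 10.53 for CUST_28634_PI425536763 (others 7.0 to 7.89) and at 11.70 for TC95916 (others 8.33 to 9.18). These 3 probes vary together and are not separate signs. The rest were single cases. TC95390 was at 8.22 in control replicate 1, TC103625 at 9.73 in control replicate 5, TC94774 at 7.09 in pool 4 at 0.1 μg/L, and CUST_7379_PI425536763 at 8.22 in pool 1 at 0.1 μg/L.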

How the results depend on the processing

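Every one of the 99 probes kept a score above 0 in every alternative in which it was tested. The probes had been chosen for a score of at least 1 on these same arrays, so this is a description from which nothing is read. The number with a score of at least 1 was 43 with normexp background correction, which compresses low signals by its offset, and 63 with array brightness as a covariate (the cause was not tested). Leaving out single arrays gave 70 to 99 such probes, with the fewest without replicate 1 at 0.1 μg/L. The sums of higher and lower calls in each contrast with the control, and at 1 and 10 against 0.01 μg/L, stayed within 1.5 times the reported sums in every alternative run. Counts in one direction moved further. In what follows, percentages are the shares of all probes called in the same direction and setting. The 21 lower at 10 μg/L than in the control became 13 with normexp (21.6%) and 13 with brightness as a covariate (18.3%). The 23 lower at 10 than at 0.01 μg/L became 14 and 15 without replicates 2 and 3 at 0.01 μg/L (11.1% and 11.9%). With array weights these 23 became 35 (20.3%), and the 14 higher at 1 than at 0.01 μg/L became 22 (20.2%). The 5 lower at 1 μg/L than in the control ranged from 3 with normexp (20.4%) to 9 with 75th-percentile scaling (29.4%). The 6 lower at 1 than at 0.01 μg/L became 3 without replicate 2 at 0.01 μg/L (9.29%). Leaving out single arrays gave 14 to 22 probes at 0.01 μg/L, 42 to 48 at 1 μg/L and 34 to 43 at 10 μg/L against the control, 18 to 22 at 1 and 22 to 36 at 10 against 0.01 μg/L. These are sums of higher and lower calls without shares over all probes, so nothing is read from them. Between 10 and 1 μg/L, 34 passed with array weights, together with 2229 of all probes (1796 lower), and leaving out single arrays gave 0 to 4, the 4 being without replicate 4 at 10 μg/L (TC102948, CUST_12338_PI425536763, TC98986 and TC129336, named after their values were seen), when 103 of all probes passed (96 lower). The cause was not tested. Between tanks at 0.1 μg/L, leaving out single arrays gave 0 to 2, the 2 being without replicate 2 there, and the tanks of the deposited table's labels gave 0. With the replicate number as a block, which pairs samples that share only a number, 19, 44 and 42 probes were called at 0.01, 1 and 10 μg/L against the control, 19 and 31 at 1 and 10 against 0.01 μg/L and 0 between 10 and 1 μg/L. Both directions are summed here and shares over all probes are not given, so nothing is read from these counts. Of 69 changes of named probes, 24 lost their call in at least 1 alternative and none changed direction.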
